A study of Mus musculus with 12 samples.

Results

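Genes of glucose transport, glycolysis and the hypoxia response were followed through cultures that differed in genotype and in folic acid. The members were chosen by symbol, with earlier results of these data known. They were 22 genes of glucose uptake, the glycolytic steps and lactate or pyruvate handling, and 20 other genes known as hypoxia regulators or targets. All 42 were found among the 24279 genes of the deposited tables, and 41 passed the filter on low counts. The cells were primary mouse embryonic fibroblasts, a mixed culture grown from embryos of embryonic day 12.5, and polyadenylated RNA was sequenced from 12 libraries. The 3 fortified mutant libraries came from Rsg1L3P/L3P cells of F3 mice on a 10 ppm folic acid diet, cultured in DMEM with 3600 ng/mL folic acid. The 3 fortified wild type libraries shared that diet and medium. The 3 moderate mutant libraries came from Rsg1L3P/L3P cells of F3 mice on 2 ppm folic acid, cultured with 225 ng/mL, and the 3 moderate wild type libraries shared those conditions. Diet and medium changed together, so their contributions cannot be told apart. The labels do not say whether replicates were separate embryos or litters, so p-values measure the spread between these libraries, which may be partly technical.

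Glycolysis splits glucose to pyruvate in the cytosol, and lactate dehydrogenase and monocarboxylate transporters dispose of the product when it does not enter mitochondria. Cells short of oxygen keep HIF alpha subunits that prolyl hydroxylases would otherwise mark for destruction, and the stable factor raises transcription of most glycolytic enzymes, of angiogenic signals and of mitophagy receptors. Because HIF is controlled largely at the protein level, its own transcript is no direct reading of its activity, and many of its targets also answer to other stress and growth pathways.

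Library totals ran from 39339190 to 48475963 counts. The fibroblast genes Col1a1, Col1a2, Vim and Fn1 were abundant in every library, and muscle transcripts were also present, with a summed muscle marker level of 846 to 5935 TPM, the deposited length-corrected share of transcripts. Of 7 endothelial markers Pecam1, Cdh5, Tie1 and Esam had at most 0.687 TPM, whereas Tek, Kdr and Emcn reached 9.76, 16.1 and 34.5 TPM, and the summed level was 7.16 to 39.9 TPM. Moderate wild type 1 and fortified mutant 2 and 3 stood apart on the first principal component of all genes. They had the 3 highest scores for neuron markers and also for skeletal muscle markers. Xist, the transcript of the inactive X chromosome, had at least 19961 counts in all 6 mutant libraries and in 1 library of each wild type group, and at most 9 counts in the other 4 wild type libraries.

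Levels between genes were compared per transcript length, in TPM. Gapdh, which oxidises glyceraldehyde phosphate, averaged 3509 TPM over the 12 libraries, followed by the pyruvate kinase gene Pkm at 1132, the main aldolase Aldoa at 1007, Ldha at 848 and Eno1 at 717 TPM. Tpi1 and Gpi1 followed below Pgam1 and Pgk1, at 357 and 225 TPM. Levels were lower still for glucose uptake and for the kinases of the early steps, with 91.2 TPM for the glucose transporter Slc2a1, 41.2 for Hk1, 33.5 for Hk2 and 43.0 TPM for Pfkl. Among the hypoxia genes the collagen prolyl hydroxylase subunit P4ha1 and Hif1a were most abundant, at 109.7 and 109 TPM, and Vegfa had 91.2. Ankrd37 averaged 1.99 TPM, and the carbonic anhydrase Car9 was lowest of all members at 0.135 TPM. Car9 did not pass the filter. It had 9, 2 and 4 counts in fortified mutant libraries, 1, 0 and 42 in fortified wild type, 2, 2 and 4 in moderate mutant and 1, 3 and 1 counts in moderate wild type libraries, and the count of 0 allows up to 3 counts. Only fortified wild type 3 stood above the others.

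Folic acid level was the comparison in which these genes differed. With both genotypes averaged, 15 of 41 tested members passed an adjusted p of 0.05 in edgeR's quasi-likelihood test with Benjamini-Hochberg adjustment (36.6%), against 17.8% of all genes tested. Of these, 8 rose with fortified folic acid, where 8.9% of all genes did, and 7 fell, where 8.86% of all genes did. The glycolytic list gave 6 higher and 2 lower of 22 with a median log2 fold change of 0.31, whereas the hypoxia list gave 2 higher and 5 lower of 19 with a median of -0.02. The median over all genes was 0.00036. These shares and medians carry no test, because the lists were chosen with earlier results of these data known. DESeq2 called 12 members higher and 7 lower, and 26% of all genes. Values below are CPM, counts scaled to library size with TMM factors, and in bulk RNA fewer cells of a type and less RNA per cell cannot be told apart.

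**Figure D1:**
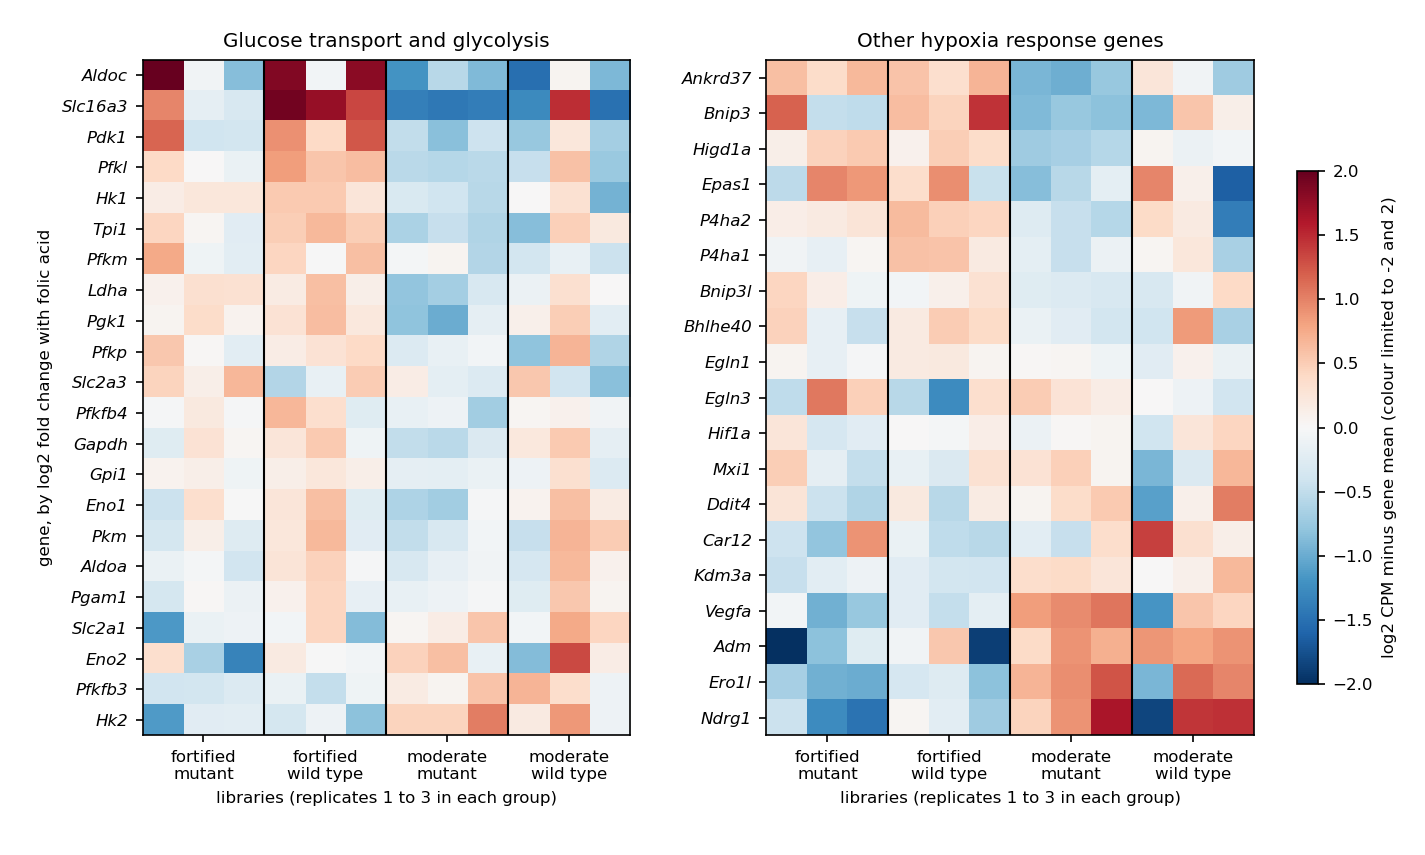
Log2 CPM of the 41 tested members in each library minus the gene's mean over all 12, with groups from left to right fortified mutant, fortified wild type, moderate mutant and moderate wild type. Genes run from the highest to the lowest log2 fold change with folic acid; Aldoc (2.03) is at the top of the glycolytic panel, and Ndrg1 (-1.63) at the foot of the hypoxia panel.

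The hexokinase isozymes, which trap glucose as glucose phosphate, moved in opposite directions. Hk2, the inducible isozyme, had 37.3, 69.96 and 71.3 CPM in fortified mutant libraries, 64.1, 76.5 and 46.6 in fortified wild type, 111, 112 and 167 in moderate mutant and 92.8, 150.4 and 76.2 CPM in moderate wild type libraries. It fell with fortified folic acid (log2 fold change -0.95, SE 0.22, adjusted p = 0.017), and 5 of 6 fortified libraries lay below the lowest moderate one. Hk1, the housekeeping isozyme, had 91.2, 95.8 and 96.1 CPM in fortified mutant libraries, 119, 118 and 97.1 in fortified wild type, 66.3, 62.6 and 55.9 in moderate mutant and 82.2, 102 and 42.8 CPM in moderate wild type libraries. Its level rose (log2 fold change 0.59, SE 0.17, adjusted p = 0.038), all 6 fortified libraries exceeding the moderate median but only 2 exceeding the highest moderate library. A ratio of the pair, chosen after the values were seen and given without a test, placed Hk2 below Hk1 in every fortified library. On the TPM scale Hk2 over Hk1 was 0.305 to 0.553 in fortified mutant, 0.358 to 0.483 in fortified wild type, 1.25 to 2.23 in moderate mutant and 0.843 to 1.33 in moderate wild type libraries, and the fortified and moderate ranges did not overlap.

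**Figure D2:**
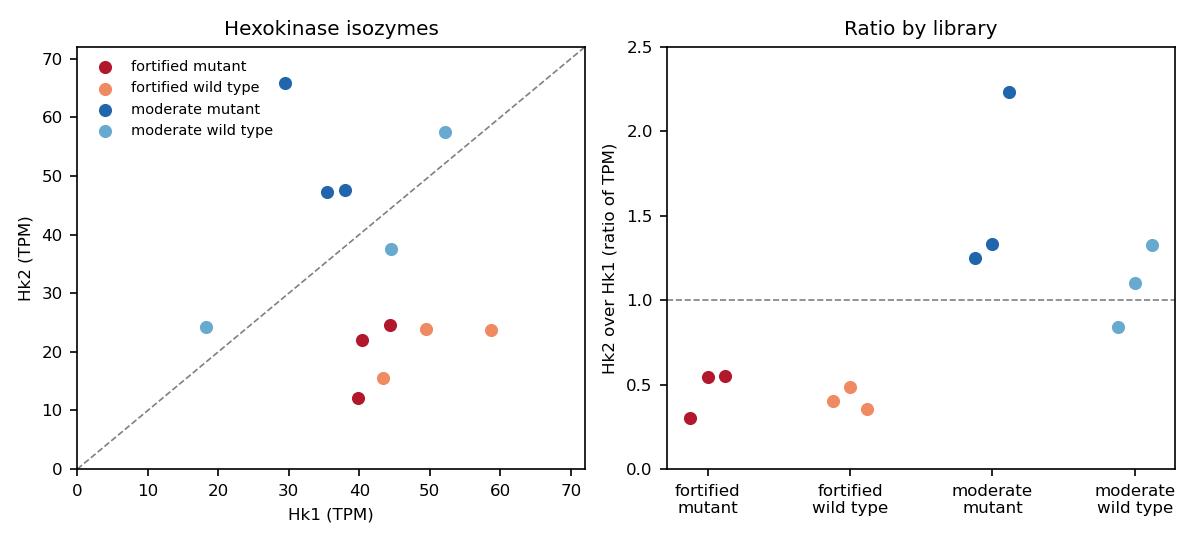
Left, TPM of Hk2 against Hk1 in each of the 12 libraries, with a dashed line of equality; right, the ratio of Hk2 to Hk1 by group. Fortified libraries lie between 0.305 and 0.553, all below the moderate libraries, which lie between 0.843 and 2.23.

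Glucose entry itself did not pass. Slc2a1 had 47.4, 96.3 and 97.8 CPM in fortified mutant libraries, 101, 142 and 57.8 in fortified wild type, 108, 117 and 156 in moderate mutant and 102, 178 and 142 CPM in moderate wild type libraries, and 5 of 6 fortified libraries lay below the lowest moderate one (log2 fold change -0.57, SE 0.25, adjusted p = 0.13). Fortified wild type 2 was the exception, within the moderate range. Slc2a3, a transporter of higher affinity, ranged over 16.4 to 46.2 CPM.

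Phosphofructokinase commits sugar to glycolysis, and its activator is made by the bifunctional PFKFB enzymes. The liver-type subunit Pfkl had 98.5, 74.8 and 68.0 CPM in fortified mutant libraries, 133, 109 and 114 in fortified wild type, 51.4, 50.1 and 51.5 in moderate mutant and 54.4, 112 and 44.4 CPM in moderate wild type libraries. Pfkl rose (log2 fold change 0.71, SE 0.20, adjusted p = 0.033) in 6 of 6 fortified libraries relative to the moderate median, although moderate wild type 2 lay within the fortified range. Pfkfb3, a producer of the activator, had 25.7, 26.1 and 27.7 CPM in fortified mutant libraries, 30.7, 24.1 and 31.8 in fortified wild type, 37.8, 35.1 and 49.8 in moderate mutant and 53.9, 42.9 and 31.4 CPM in moderate wild type libraries. Pfkfb3 fell (log2 fold change -0.60, SE 0.15, adjusted p = 0.020), and all fortified libraries but fortified wild type 3 lay below the lowest moderate one. Pfkm, Pfkp and Pfkfb4 ranged over 24.9 to 63.5, 26.2 to 74.0 and 3.50 to 9.08 CPM and did not pass.

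The middle of the pathway showed 1 call, on a minor isozyme. Aldoc, the brain-type aldolase, had 15.7, 3.00 and 1.73 CPM in fortified mutant libraries, 11.4, 3.01 and 11.0 in fortified wild type, 1.35, 2.12 and 1.68 in moderate mutant and 1.08, 3.26 and 1.67 CPM in moderate wild type libraries. It had the highest log2 fold change of all members (2.03, SE 0.55, adjusted p = 0.028), carried by fortified mutant 1 and fortified wild type 1 and 3, while the other 3 fortified libraries overlapped the moderate ones. Aldoa, far more abundant, had 628, 664 and 525 CPM in fortified mutant libraries, 820.4, 943 and 677 in fortified wild type, 547, 614 and 654 in moderate mutant and 539.9, 1077 and 729.9 CPM in moderate wild type libraries. Its fortified and moderate libraries overlapped in both genotypes (log2 fold change 0.03, SE 0.17, adjusted p = 0.92). The isomerases Gpi1 and Tpi1 ranged over 262 to 392 and 140.4 to 398 CPM without passing.

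None of the payoff steps, which return ATP, passed on average. Gapdh had 1821, 2643 and 2202 CPM in fortified mutant libraries, 2541, 3112 and 2027 in fortified wild type, 1533, 1476 and 1757 in moderate mutant and 2495, 3093 and 1909 CPM in moderate wild type libraries (log2 fold change 0.26, SE 0.17, adjusted p = 0.29). Pgk1, the first ATP-forming kinase, had 358, 443 and 360.4 CPM in fortified mutant libraries, 419.7, 529 and 398 in fortified wild type, 197, 173 and 303 in moderate mutant and 370.0, 482 and 296 CPM in moderate wild type libraries, the moderate mutant libraries being 3 of the 4 lowest (log2 fold change 0.51, SE 0.17, adjusted p = 0.058). Pkm had 1008, 1402 and 1072 CPM in fortified mutant libraries, 1508, 2009 and 1096 in fortified wild type, 912, 1031 and 1233 in moderate mutant and 936, 2061 and 1829.9 CPM in moderate wild type libraries, with no separation by folic acid (log2 fold change 0.03, SE 0.21, adjusted p = 0.93). Pgam1 and Eno2 ranged over 311 to 575 and 6.65 to 42.6 CPM, and Eno1 over 358 to 878 CPM. Eno1b, a near-identical copy, had 1.07 to 1.16 times the TPM of Eno1 in every library, so that reads may be split between the pair and the Eno1 value is uncertain.

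Of the members that handle pyruvate and lactate, Ldha, Slc16a3 and Pdk1 rose. Ldha, which reduces pyruvate to lactate, had 663, 781 and 772 CPM in fortified mutant libraries, 705, 954 and 682 in fortified wild type, 365, 390.0 and 505 in moderate mutant and 577, 785 and 632 CPM in moderate wild type libraries. It rose (log2 fold change 0.52, SE 0.14, adjusted p = 0.026) in 6 of 6 fortified libraries relative to the moderate median. Slc16a3, a lactate exporter, had 40.8, 18.3 and 16.6 CPM in fortified mutant libraries, 79.1, 69.99 and 52.5 in fortified wild type, 8.04, 7.71 and 7.93 in moderate mutant and 8.54, 58.2 and 7.37 CPM in moderate wild type libraries. It rose (log2 fold change 1.56, SE 0.47, adjusted p = 0.041), but moderate wild type 2 stood at the level of the fortified wild type libraries while the other 5 moderate libraries had at most 8.54 CPM. Pdk1, the kinase that shuts pyruvate dehydrogenase, had 29.0, 9.75 and 10.0 CPM in fortified mutant libraries, 24.4, 17.1 and 30.5 in fortified wild type, 9.22, 7.20 and 9.68 in moderate mutant and 7.61, 15.2 and 8.05 CPM in moderate wild type libraries. Pdk1 rose (log2 fold change 1.06, SE 0.30, adjusted p = 0.034), with 4 of 6 fortified libraries above every moderate one.

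Transcripts of the oxygen-sensing machinery itself did not pass. Hif1a had 302, 203 and 219 CPM in fortified mutant libraries, 259, 249.6 and 283 in fortified wild type, 238, 260.1 and 266 in moderate mutant and 194, 304 and 346 CPM in moderate wild type libraries, overlapping in all groups (log2 fold change -0.08, SE 0.15, adjusted p = 0.73). Epas1, the second HIF alpha gene, had 7.06, 20.1 and 18.5 CPM in fortified mutant libraries, 13.02, 19.4 and 7.44 in fortified wild type, 5.600, 6.89 and 8.91 in moderate mutant and 20.2, 10.9 and 3.26 CPM in moderate wild type libraries (log2 fold change 0.66, SE 0.41, adjusted p = 0.28), and its groups overlapped. The HIF prolyl hydroxylase Egln1 was the steadiest of these, with 64.0, 55.3 and 61.0 CPM in fortified mutant libraries, 69.96, 70.7 and 64.6 in fortified wild type, 62.6, 63.5 and 58.2 in moderate mutant and 53.1, 65.7 and 56.5 CPM in moderate wild type libraries (log2 fold change 0.10, SE 0.09, adjusted p = 0.47). Egln3, a HIF-inducible member of the same family, had 24.2, 71.1 and 47.6 CPM in fortified mutant libraries, 23.3, 14.3 and 43.5 in fortified wild type, 49.0, 41.5 and 38.1 in moderate mutant and 34.6, 32.1 and 26.4 CPM in moderate wild type libraries (log2 fold change -0.02, SE 0.28, adjusted p = 0.96), and fortified libraries held both its highest and its lowest values. Kdm3a, a HIF-inducible histone demethylase, had 35.1, 41.7 and 45.1 CPM in fortified mutant libraries, 41.3, 37.6 and 37.0 in fortified wild type, 61.5, 62.8 and 57.1 in moderate mutant and 48.5, 51.4 and 75.4 CPM in moderate wild type libraries. It fell (log2 fold change -0.58, SE 0.12, adjusted p = 0.011), with every fortified library below every moderate one. The transcriptional repressors Mxi1 and Bhlhe40 ranged over 11.1 to 33.1 and 43.2 to 122 CPM without passing.

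Both members that encode secreted signals, Vegfa and Adm, fell. Vegfa, the main angiogenic growth factor, had 124, 66.4 and 76.6 CPM in fortified mutant libraries, 109.6, 93.1 and 113 in fortified wild type, 229.6, 248 and 269.8 in moderate mutant and 57.0, 189 and 174 CPM in moderate wild type libraries. It fell (log2 fold change -0.95, SE 0.26, adjusted p = 0.029), with fortified libraries below all moderate libraries but moderate wild type 1, which had the lowest value of all. Adm, encoding the vasodilator adrenomedullin, had 7.04, 17.2 and 25.7 CPM in fortified mutant libraries, 28.8, 44.2 and 8.18 in fortified wild type, 39.5, 56.7 and 49.5 in moderate mutant and 56.1, 52.7 and 56.3 CPM in moderate wild type libraries. Adm fell (log2 fold change -1.28, SE 0.37, adjusted p = 0.035), and 5 of 6 fortified libraries lay below the lowest moderate one, the exception being fortified wild type 2.

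Among protein-folding and stress targets, 2 fell and the others did not pass. Ero1l, the oxidase that drives disulfide formation in the endoplasmic reticulum, had 54.5, 44.6 and 43.5 CPM in fortified mutant libraries, 68.8, 72.5 and 49.3 in fortified wild type, 139, 165 and 208 in moderate mutant and 46.0, 189.7 and 171 CPM in moderate wild type libraries. It fell (log2 fold change -1.47, SE 0.28, adjusted p = 0.0085), and the moderate libraries were well above the fortified ones with the exception of moderate wild type 1. Ndrg1, a stress-inducible cytoplasmic protein, had 23.2, 13.03 and 11.2 CPM in fortified mutant libraries, 31.9, 26.9 and 18.9 in fortified wild type, 42.6, 57.8 and 97.0 in moderate mutant and 8.65, 83.8 and 86.0 CPM in moderate wild type libraries. Its level fell (log2 fold change -1.63, SE 0.45, adjusted p = 0.031), again with moderate wild type 1 below every fortified library. P4ha1 had 204, 191 and 221 CPM in fortified mutant libraries, 323, 318 and 243 in fortified wild type, 187, 156 and 196 in moderate mutant and 219, 251 and 136 CPM in moderate wild type libraries (log2 fold change 0.37, SE 0.15, adjusted p = 0.11), and its sister subunit P4ha2 ranged over 22.6 to 90.8 CPM; neither passed. Ddit4, an inhibitor of mTOR signalling, ranged over 23.1 to 99.4 CPM without passing.

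Higd1a and Ankrd37 were the hypoxia targets that rose. Higd1a, a mitochondrial inner membrane protein, had 38.6, 49.0 and 50.9 CPM in fortified mutant libraries, 37.4, 50.02 and 45.5 in fortified wild type, 21.6, 22.3 and 23.96 in moderate mutant and 36.8, 32.8 and 34.1 CPM in moderate wild type libraries. It rose (log2 fold change 0.69, SE 0.11, adjusted p = 0.0057), and every fortified library exceeded every moderate one. Bnip3, a mitophagy receptor, had 36.6, 11.6 and 11.3 CPM in fortified mutant libraries, 24.7, 22.1 and 43.8 in fortified wild type, 8.70, 9.55 and 9.16 in moderate mutant and 8.63, 23.7 and 17.6 CPM in moderate wild type libraries, with fortified mutant 1 and fortified wild type 1 and 3 above all moderate libraries (log2 fold change 0.99, SE 0.34, adjusted p = 0.063). Bnip3l, its relative, ranged over 74.6 to 126 CPM, and neither passed. Ankrd37, an ankyrin repeat protein induced by HIF, had 1.10, 0.928 and 1.14 CPM in fortified mutant libraries, 1.07, 0.907 and 1.16 in fortified wild type, 0.354, 0.335 and 0.400 in moderate mutant and 0.844, 0.668 and 0.413 CPM in moderate wild type libraries. Its transcript rose (log2 fold change 1.12, SE 0.26, adjusted p = 0.017), without overlap between fortified and moderate libraries, though on only 15 to 53 counts per library. Car12, a membrane carbonic anhydrase, had 4.09, 3.15 and 10.3 CPM in fortified mutant libraries, 4.97, 3.85 and 3.71 in fortified wild type, 4.73, 3.96 and 7.00 in moderate mutant and 14.3, 6.86 and 5.92 CPM in moderate wild type libraries, and did not pass (log2 fold change -0.47, SE 0.33, adjusted p = 0.34).

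Across 6 fortified and 6 moderate libraries the groups separated completely for 3 of 41 tested members, Higd1a and Ankrd37 higher and Kdm3a lower. Of all genes 2.77% separated higher and 3.6% lower, so these counts were near the background. Leaving out 1 library at a time, Higd1a, Ero1l, Hk2 and Kdm3a passed in all 12 fits. Ankrd37 and Pfkfb3 passed in 11, Ldha in 7, Aldoc and Pdk1 in 5, Adm in 4, and Hk1, Ndrg1, Pfkl, Slc16a3 and Vegfa in 3 of 12. Omitting fortified mutant library 1, 2 or 3 left 9, 8 or 12 members called, and omitting fortified wild type library 1, 2 or 3 left 7, 9 or 8. Omitting moderate mutant library 1, 2 or 3 left 8, 5 or 7, and omitting moderate wild type library 1, 2 or 3 gave 17, 16 or 9. Over these 12 fits 9.15% to 26.2% of all genes were called, the most without moderate wild type 1. All 15 kept their direction in every alternative, but not their size. With only libraries with Xist, which leaves 1 wild type library at each folic acid level, no member and no gene passed, and the log2 fold change was -0.10 for Ndrg1 (adjusted p = 0.90) and -0.28 for Vegfa (adjusted p = 0.50). Values scaled by TPM, however, move the whole table downward in fortified libraries. Of all genes called, 50.1% were higher with TMM scaling, 34.3% with library totals alone and 15.7% on either TPM scale, where the median of all genes was -0.15 with a pseudocount of 1. On that scale the glycolytic median was 0.08 and the hypoxia median -0.29. Aldoc, Hk1, Ldha, Pdk1 and Pfkl no longer passed on either TPM scale, and Slc16a3 was the only glycolytic member still called higher.

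**Figure D3:**
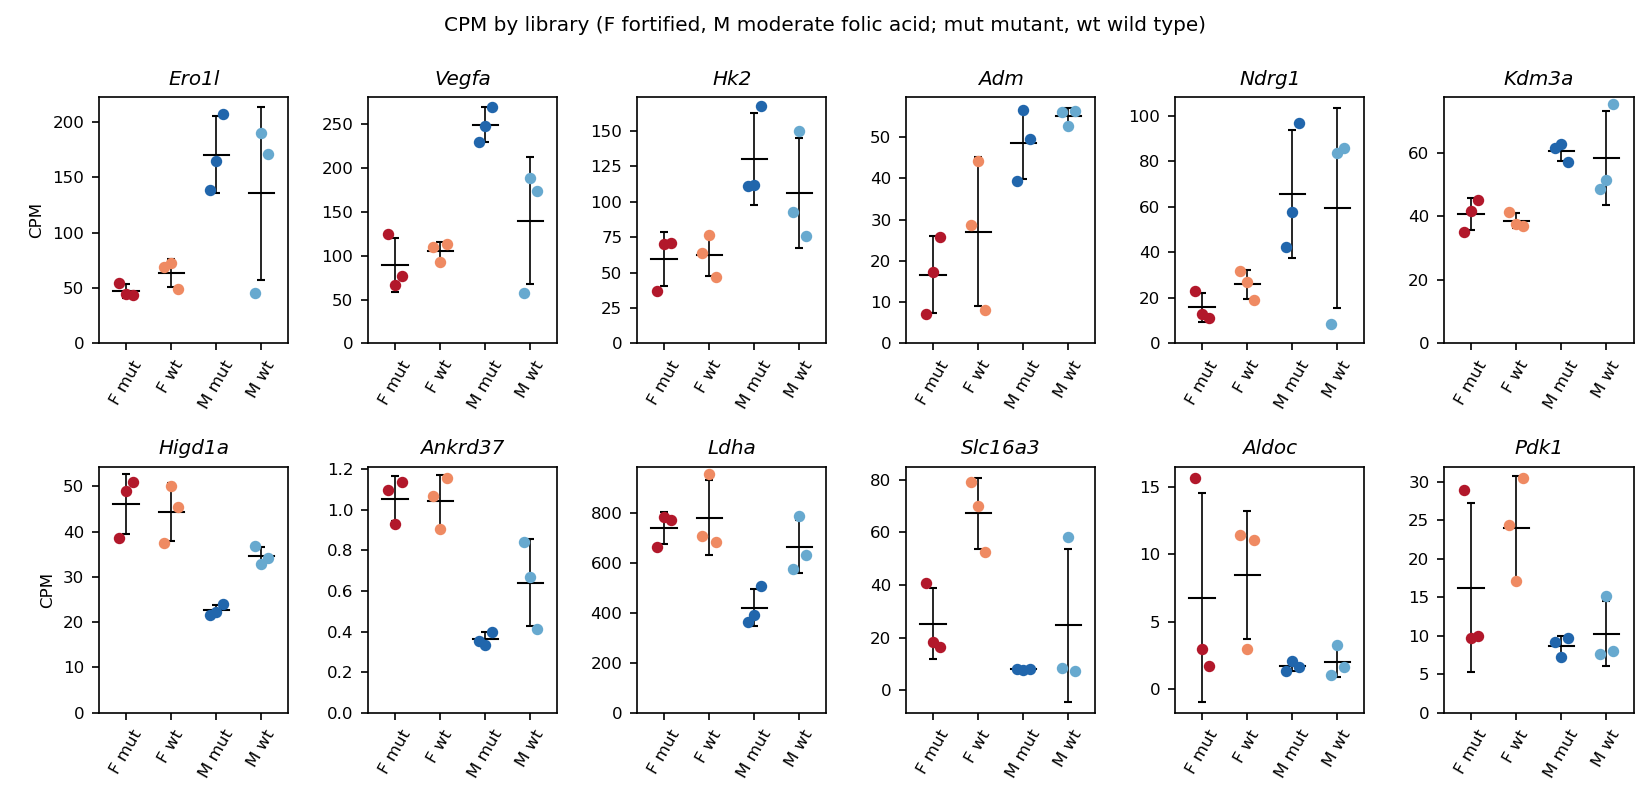
CPM of 12 named members in each library (points), with the group mean (line) and SD (bar) over 3 libraries; groups from left to right are fortified mutant, fortified wild type, moderate mutant and moderate wild type. Kdm3a, Higd1a and Ankrd37 separate by folic acid in both genotypes, while the moderate wild type bars of Ero1l, Vegfa and Ndrg1 are wide because 1 library is low.

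In mutant cells alone, 5 of 41 members passed (12.2%), against 6.93% of all genes. The 3 that rose (4.19% of all genes did) were Higd1a (1.03, SE 0.16, adjusted p = 0.0098), Ldha (0.81, SE 0.20, adjusted p = 0.037) and Ankrd37 (1.53, SE 0.38, adjusted p = 0.040, all log2 fold changes). The 2 that fell (2.74% of all genes did) were Ero1l (-1.84, SE 0.41, adjusted p = 0.029) and Vegfa (-1.48, SE 0.37, adjusted p = 0.040). Each lay beyond all 3 moderate mutant libraries in 3 of 3 fortified mutant libraries. Hk2 (-1.13, SE 0.32, adjusted p = 0.053), Kdm3a (-0.57, SE 0.17, adjusted p = 0.068) and Pgk1 (0.79, SE 0.24, adjusted p = 0.068) came next and did not pass. The log2 fold change had a median of 0.40 in the glycolytic list, where 17 of 22 were positive (53.0% of all genes were), and 0.15 in the hypoxia list, where 10 of 19 were positive, against 0.04 over all genes. On the TPM scale with a pseudocount of 1 those medians were 0.05 and -0.30, the hypoxia median changing sign, while the median of all genes was -0.23.

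Separation of 3 against 3 libraries was common in this comparison. It held for 15 members higher (36.6%) and 8 lower (19.5%), against 19.6% and 18.5% of all genes, so the lower share was near the background. Of all genes called, 60.5% were higher with TMM scaling, 45.9% with library totals alone, and 10.9% and 11.3% on the TPM scales. DESeq2 called 6 members higher and 7 lower, and 18% of all genes. With any 1 moderate mutant library left out, or fortified mutant 2, no member passed in edgeR's test, and at most 0.254% of all genes did. Without fortified mutant 1 or 3 it was 1 member, Higd1a, with 1.33% and 3.1% of all genes. Leaving out a wild type library also moved the count, to 2, 3 or 4 for fortified wild type library 1, 2 or 3, and to 10, 8 or 11 for moderate wild type library 1, 2 or 3. All genes called were then 3.69% to 3.88% and 8.09% to 13.5%, and the cause was not tested. With a trend of fold change over transcript length removed, an alternative chosen after seeing the data, Higd1a alone passed.

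Proliferation markers moved with folic acid in the same mutant libraries. All 12 of 12 cell cycle genes had positive log2 fold changes there (median 1.26), and 3 of them passed, as 4.19% of all genes did. Their score, a mean of log2 CPM centred on each gene, was 0.09 to 0.90 in fortified mutant libraries and -0.70 to -0.54 in moderate mutant libraries, with summed levels of 736 to 1363 TPM and 591 to 594 TPM. In fortified wild type libraries the score of the 13 fibroblast markers was 0.54 to 1.02, against -0.79 to -0.10 in moderate wild type libraries, and their summed level was 14132 to 20127 TPM against 6676 to 13297 TPM. Neither list separated in the other genotype. In wild type cells 7 of 12 cell cycle genes had positive values (median 0.06) and none passed. Their scores were 0.003 to 0.40 in fortified and -0.33 to 0.71 in moderate wild type libraries. Fibroblast scores were -0.33 to 0.43 in fortified and -0.36 to -0.14 in moderate mutant libraries. Scores of the other marker lists overlapped by folic acid in both genotypes. Of skeletal muscle genes 18 of 19 were negative in wild type cells (median -0.79) and 12 of 19 positive in mutant cells. For neuron genes it was 14 of 15 negative in wild type (median -0.90) and 14 of 15 positive in mutant cells. All 4 tested erythroid genes were negative in both genotypes (medians -4.28 in wild type and -1.52 in mutant cells). The part of any marker list in the values of the glycolytic and hypoxia genes was not tested.

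**Figure D4:**
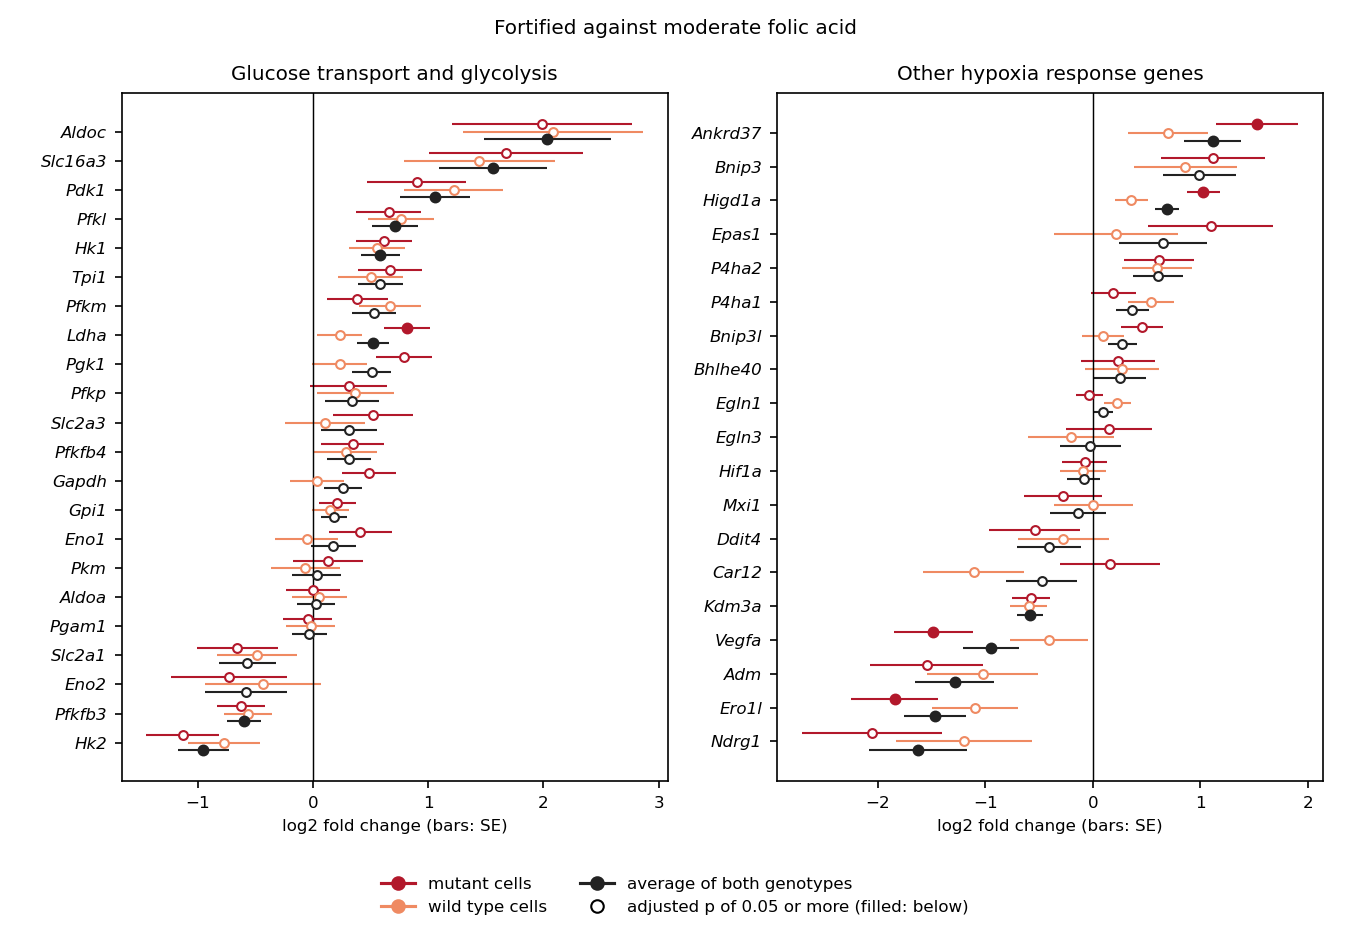
Log2 fold changes (fortified against moderate folic acid) with SE for the 41 tested members, in mutant cells, in wild type cells and averaged over both genotypes; filled points have an adjusted p under 0.05. The averaged values of Hk2 (-0.95) and Hk1 (0.59) fall on opposite sides of 0, and no wild type point is filled.

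In wild type cells alone no member passed in edgeR's test, where 0.0263% of all genes did. At an unadjusted p under 0.05 there were 8 higher and 5 lower members, against 9.67% and 9.98% of all genes, and DESeq2 called 1, lower, with 8.05% of all genes called. The members with the smallest p in each list were Pdk1 (1.22, SE 0.43, adjusted p = 0.16), Pfkfb3 (-0.57, SE 0.21, adjusted p = 0.17) and Pfkl (0.76, SE 0.28, adjusted p = 0.17) of glycolysis, and Kdm3a (-0.60, SE 0.17, adjusted p = 0.11), Ero1l (-1.09, SE 0.40, adjusted p = 0.17) and P4ha1 (0.54, SE 0.21, adjusted p = 0.19) of hypoxia, as log2 fold changes. The groups did not overlap for 6 of 41 members that were higher, Ankrd37, Higd1a, P4ha2, Pdk1, Pfkm and Tpi1, where 11.0% of all genes separated. Nor did they overlap for 3 that were lower, Adm, Car12 and Kdm3a, where 9.67% of all genes separated. That lower count was not above the background. Without moderate wild type 1, which was low in Vegfa, Ero1l and Ndrg1, 3 members passed, all lower, with 6.59% of all genes (3.42% lower). Without moderate wild type 2, 2 passed, both higher, with 0.675% of all genes.

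Whether folic acid acted differently in the genotypes was tested as an interaction, and no member passed (lowest adjusted p = 0.71, for Higd1a), nor did any of the 15186 genes tested in edgeR (0%), while DESeq2 called 8 genes (0.0528%) and no member. Higd1a was the member with an unadjusted p under 0.05, on the higher side, as 4.55% of all genes were. Its log2 fold change with folic acid was 1.03 in mutant cells against 0.36 in wild type cells, and the difference was 0.67, SE 0.22, adjusted p = 0.71. For Ldha these log2 fold changes were 0.81 in mutant cells against 0.23 in wild type cells, and for Vegfa -1.48 in mutant cells against -0.41 in wild type cells. The calls made in mutant cells are thus not shown to be particular to them.

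Genotype was compared at each folic acid level. No member passed at either level or on average in edgeR's test, as for all genes (0%), and DESeq2 called no member, with 0.0396% of all genes called at fortified folic acid, 0.365% at moderate and 0.119% on average. At moderate folic acid 1 member was higher and 6 lower at an unadjusted p under 0.05, against 2.73% and 5.14% of all genes. The smallest p-values were those of Higd1a (-0.61, SE 0.16, adjusted p = 0.59), Ldha (-0.66, SE 0.20, adjusted p = 0.59), Pgk1 (-0.77, SE 0.24, adjusted p = 0.59), Gapdh (-0.65, SE 0.23, adjusted p = 0.60), Vegfa (0.83, SE 0.36, adjusted p = 0.63) and Ankrd37 (-0.82, SE 0.38, adjusted p = 0.64), as log2 fold changes of mutant against wild type. In this comparison 19 of 22 glycolytic genes had negative values, with a median of -0.27, against 56.4% of all genes and a median of -0.05. On the TPM scale with a pseudocount of 1 the glycolytic median was -0.03 and the hypoxia median changed sign, to 0.05 against -0.17. Mutant and wild type libraries did not overlap for 2 of 41 members higher in mutant, Egln3 and Vegfa (6.35% of all genes). That higher count was not above the background. Nor did they overlap for 6 that were lower in mutant, Ankrd37, Eno1, Gapdh, Higd1a, Ldha and Pfkfb4 (6.68% of all genes). Moderate wild type 2 was the highest of all 12 libraries for 7 of 22 glycolytic genes in CPM, and without it the glycolytic median was -0.01.

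At fortified folic acid 21 of 22 glycolytic genes had negative values in mutant against wild type cells, with a median of -0.25, against 49.0% of all genes and a median of 0.01. None was higher and 1, P4ha1 of the hypoxia list, was lower at an unadjusted p under 0.05, where 1.26% and 2.03% of all genes were. The smallest p-values were those of P4ha1 (-0.52, SE 0.21, adjusted p = 0.94), Slc16a3 (-1.41, SE 0.66, adjusted p = 0.94), Egln3 (0.82, SE 0.40, adjusted p = 0.94), Pfkl (-0.57, SE 0.28, adjusted p = 0.94), Aldoa (-0.43, SE 0.24, adjusted p = 0.94) and Egln1 (-0.19, SE 0.12, adjusted p = 0.94). Mutant and wild type libraries did not overlap for 8 members, all lower in mutant: Aldoa, Egln1, Hk1, P4ha1, P4ha2, Pfkl, Slc16a3 and Tpi1 (5.62% of all genes separated lower, and 4.66% higher). The 2 genotype comparisons share no library, but genes of a pathway are not independent, so the counts of negative values carry no test. Marker lists shifted too. At fortified folic acid all 19 muscle and 15 neuron genes were positive, and 8 of 8 macrophage and 12 of 13 fibroblast genes negative. At moderate folic acid 14 of 19 muscle and 9 of 13 fibroblast genes were positive, and 14 of 15 neuron and 7 of 8 macrophage genes negative. The part of these lists in the values of the members was not tested. On average over folic acid, 1 member was higher and 11 lower at an unadjusted p under 0.05 (1.55% and 3.09% of all genes), the lowest p being that of Slc16a3 (-1.53, SE 0.47, adjusted p = 0.99). All mutant but only 2 of 6 wild type libraries had Xist counts, and among libraries with Xist alone the moderate glycolytic median was 0.07, on 1 wild type library.

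**Figure D5:**
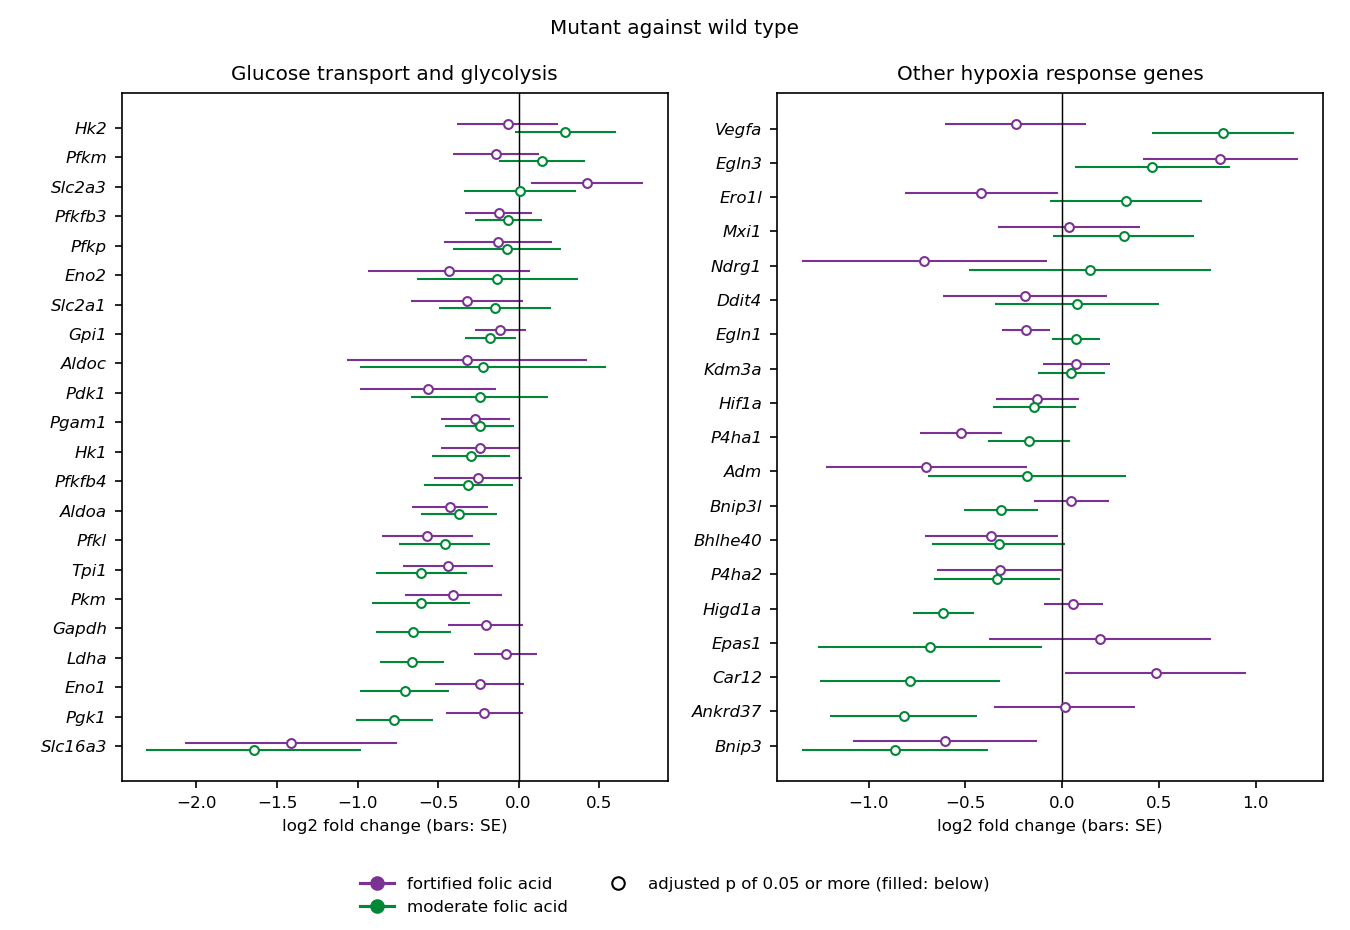
Log2 fold changes (mutant against wild type) with SE for the 41 tested members at fortified and at moderate folic acid; open points have an adjusted p of 0.05 or more. All points are open, and 21 of 22 glycolytic genes lie below 0 at fortified and 19 of 22 at moderate folic acid.

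The wider glucose network, 46 further genes of which 38 were tested, gave 5 higher and 3 lower calls with folic acid averaged over genotypes (21.1%, against 17.8% of all genes), which is near the background, and a median log2 fold change of 0.25. The 6 with the smallest p included enzymes of the pentose phosphate pathway, transaldolase Taldo1 (0.40, SE 0.09, adjusted p = 0.016) and transketolase Tkt (0.57, SE 0.15, adjusted p = 0.025), and its entry enzyme G6pdx (0.42, SE 0.11, adjusted p = 0.027). Phosphoglucomutase Pgm1 rose too (0.42, SE 0.10, adjusted p = 0.017). Tigar, a phosphatase that opposes phosphofructokinase, fell (-0.59, SE 0.14, adjusted p = 0.019), as did the lactate transporter Slc16a1 (-1.05, SE 0.20, adjusted p = 0.0080). Slc16a1 had 36.4, 37.1 and 46.2 CPM in fortified mutant libraries, 36.0, 48.6 and 29.3 in fortified wild type, 54.3, 60.8 and 114 in moderate mutant and 69.7, 88.8 and 95.8 CPM in moderate wild type libraries, and all fortified libraries lay below all moderate ones. Its sister Slc16a3 rose, so the 2 monocarboxylate transporters moved in opposite directions. In mutant cells alone Taldo1, Pfkfb1 and the mitochondrial pyruvate carrier Mpc1 rose, with log2 fold changes of 0.66, 0.93 and 0.97, and none fell (7.89% of the list, against 6.93% of all genes).

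Of 49 further HIF pathway genes and targets, 46 were tested, and 3 rose and 8 fell with folic acid averaged over genotypes (23.9%, against 17.8% of all genes), with a median of -0.02. Stc2, encoding the secreted glycoprotein stanniocalcin, had 13.6, 14.8 and 12.8 CPM in fortified mutant libraries, 14.1, 12.5 and 15.8 in fortified wild type, 59.3, 66.8 and 132 in moderate mutant and 17.7, 61.0 and 83.5 CPM in moderate wild type libraries. It fell (-2.29, SE 0.33, adjusted p = 0.0039) with fortified libraries below all moderate ones. The secreted factors Angptl4 (1.52, SE 0.60, adjusted p = 0.096) and Cxcl12 (0.54, SE 0.20, adjusted p = 0.080), named after their values were seen, had positive values and did not pass. In the whole list 23 genes had positive and 23 negative values. Edn1, another secreted factor, had 153 to 1019 counts in fortified libraries and 688 to 1274 in moderate ones. Glycogen synthase Gys1 (-0.87, SE 0.18, adjusted p = 0.012) and the transcription factors Nfil3 (-0.68, SE 0.15, adjusted p = 0.015) and Rbpj (-1.03, SE 0.23, adjusted p = 0.015) also fell. Fam162a, a mitochondrial HIF target (0.76, SE 0.14, adjusted p = 0.0072), and Insig1, a sterol-sensing protein of the endoplasmic reticulum (1.21, SE 0.27, adjusted p = 0.014), rose. In mutant cells Fam162a and Insig1 rose, and Stc2, Gys1 and Nfil3 fell, with log2 fold changes of 1.08, 1.71, -2.65, -1.25 and -0.88. These 5 were 10.9% of the list, against 6.93% of all genes.

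Promoter windows of the 5 members that passed in mutant cells are shown because HIF binds a short core, ACGTG or GCGTG, and these genes moved in opposite directions with folic acid. The windows are RefSeq's on GRCm38.p6, from 250 bases before to 50 after the start of the gene's first listed transcript, printed 5′ to 3′ on the gene's strand. They lie at chr8:45999801-46000100 on the minus strand for Ankrd37, chr9:121857747-121858046 on the minus strand for Higd1a and chr7:46845554-46845853 on the plus strand for Ldha, which rose. They lie at chr14:45318523-45318822 on the minus strand for Ero1l, listed as Ero1a, and chr17:46032328-46032627 on the minus strand for Vegfa, which fell. Capitals mark ACGTG or GCGTG on either strand, with neighbouring or overlapping matches run together.
Ankrd37: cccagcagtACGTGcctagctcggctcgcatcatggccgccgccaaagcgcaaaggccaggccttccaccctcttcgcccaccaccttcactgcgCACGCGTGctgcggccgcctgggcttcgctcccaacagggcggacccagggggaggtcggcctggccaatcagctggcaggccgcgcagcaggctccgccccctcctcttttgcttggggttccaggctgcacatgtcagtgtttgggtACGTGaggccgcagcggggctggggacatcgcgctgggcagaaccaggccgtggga
Higd1a: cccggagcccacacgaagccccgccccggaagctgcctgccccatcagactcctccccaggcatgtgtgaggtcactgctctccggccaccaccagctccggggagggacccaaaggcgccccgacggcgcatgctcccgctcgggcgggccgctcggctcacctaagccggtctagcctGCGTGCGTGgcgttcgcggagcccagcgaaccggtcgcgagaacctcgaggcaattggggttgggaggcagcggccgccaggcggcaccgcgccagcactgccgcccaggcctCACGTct
Ldha: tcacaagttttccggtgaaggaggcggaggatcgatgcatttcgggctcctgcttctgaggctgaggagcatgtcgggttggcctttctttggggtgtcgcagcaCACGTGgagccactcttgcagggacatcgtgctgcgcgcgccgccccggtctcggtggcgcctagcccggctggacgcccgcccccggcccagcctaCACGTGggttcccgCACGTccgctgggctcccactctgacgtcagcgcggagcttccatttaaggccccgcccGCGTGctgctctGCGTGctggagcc
Ero1l: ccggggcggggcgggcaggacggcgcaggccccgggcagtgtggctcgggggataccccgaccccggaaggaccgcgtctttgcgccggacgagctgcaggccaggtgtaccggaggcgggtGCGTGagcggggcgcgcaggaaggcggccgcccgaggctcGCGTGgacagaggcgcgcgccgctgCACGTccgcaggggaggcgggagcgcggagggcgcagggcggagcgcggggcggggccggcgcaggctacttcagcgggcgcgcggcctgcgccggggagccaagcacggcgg
Vegfa: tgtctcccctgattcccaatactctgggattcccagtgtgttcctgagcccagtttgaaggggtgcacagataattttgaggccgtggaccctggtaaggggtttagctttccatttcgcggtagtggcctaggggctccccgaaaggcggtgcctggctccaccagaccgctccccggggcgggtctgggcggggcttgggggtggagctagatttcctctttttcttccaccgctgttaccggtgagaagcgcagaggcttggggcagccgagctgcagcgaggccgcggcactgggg

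The core occurred in the windows of genes that rose and of 1 gene that fell. Ankrd37 had 3 runs of capitals, Higd1a 2, Ldha 5 and Ero1l 3, and the Vegfa window held none, which says only that these letters are not in it. In Ldha 2 of the runs are CACGTG, the E-box, which contains ACGTG. Of the 37 members with a window, 28 held either core (75.7%), against 43.8% of 27025 windows. Either core was present in 7 of the 8 members that rose on average and in 5 of the 6 with a window that fell. The member windows were also richer in CG dinucleotides, which both cores contain, with a median of 21 against 7. A match is a description of sequence and not a bound site. Slc2a3, Bnip3l, Epas1, Ndrg1 and Bhlhe40 were not matched.

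Libraries of moderate wild type differed in direction, whereas those of each other group shared a direction and differed in size. For the 8 members that rose on average, the mean deviation from each gene's mean log2 CPM was 0.72, 0.09 and 0.00 in fortified mutant 1, 2 and 3, and 0.86, 0.58 and 0.80 in fortified wild type 1, 2 and 3. It was -0.79, -0.77 and -0.68 in moderate mutant 1, 2 and 3, and -0.48, 0.35 and -0.69 in moderate wild type 1, 2 and 3. For the 7 that fell the deviation was -0.75, -0.68 and -0.58 in fortified mutant, and -0.19, -0.19 and -0.70 in fortified wild type libraries. It was 0.47, 0.65 and 0.93 in moderate mutant, and -0.31, 0.75 and 0.60 in moderate wild type libraries. Moderate wild type 2 was thus the highest moderate library for the first set and the second highest for the other, and moderate wild type 1 was the 1 moderate library below 0 for the genes that fell. These deviations describe genes chosen by the same comparison and support no test. Moderate wild type 1 and fortified mutant 2 and 3 were the libraries apart on the first component. Without all 3, which leaves 1 fortified mutant library, 15 members still passed on average, as 25.4% of all genes did. Of these members 11 were shared: Hk1, Ldha, Pfkfb3 and Pfkl no longer passed, and Bnip3, Pfkm, Slc2a1 and Tpi1 did. In mutant cells 7 members passed without them, as 7.08% of all genes did, and Ero1l and Vegfa were shared. This sets 1 fortified mutant library, assumed to vary like the other groups, against 3 moderate ones.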

How the data were processed

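The authors deposited expected counts and TPM per gene, which they made from the reads with salmon. Its version was not given in the sources used here, nor was the annotation. The genome was mm10 per the submitters' processing notes. RNA was extracted with TRIzol and polyadenylated RNA made into libraries, per the labels' protocols. Columns were matched to samples by the column number in each sample's description; the letters in the column names are not explained.

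Expected counts were rounded, filtered with filterByExpr (minimum count 10, minimum total 15; 15186 of 24279 genes kept), scaled by TMM and fitted in edgeR 4.0.16 under R 4.3.3 with 1 mean per group over all 12 libraries. Contrasts were tested by glmQLFTest with Benjamini-Hochberg adjustment over all genes, at 0.05. The biological coefficient of variation was 0.332. Levels between genes used the deposited TPM. Depth was 39339190 to 48475963 counts per library, so counting error matters only for the lowest genes. Alternatives used DESeq2 1.42.0, limma 3.58.1, other scalings, filters and subsets of libraries. The procedure was also run on simulated counts, drawn independently for each gene and library. Such counts hold no outlying library and no difference in cell content, so that run does not bear on either.

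Members and lists were chosen with earlier results of these data known. Named with every library's value were members passing in any contrast, the 3 smallest p-values per list and contrast, and 16 fixed genes; of other lists, at most 6 passing genes per contrast, by smallest p. Slc16a1 and Stc2 were shown by library, and ranges and isozyme ratios picked, after values were seen. Same-numbered libraries had correlated deviations of -0.477 to 0.244, and no label ties a number to a litter or batch, so numbers were not taken as pairs.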

Additional observations from a re-analysis of the deposited data

How the results depend on the processing

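Members called in mutant cells or on average kept their direction in that comparison under every alternative run. For fortified against moderate in mutant cells, members called were 6 higher and 7 lower with DESeq2, 13 and 10 with limma-voom with quality weights, 7 lower on both TPM scales, 4 lower with library totals only, 7 and 7 with only the groups compared or with only libraries with Xist, and 1 and 0 with the transcript-length trend removed (added after seeing the data). All genes called were 18% with DESeq2, 34.7% with limma-voom, 14.4% with only the groups compared and 0.56% with the length trend removed. Lower calls took 16.5% and 16.4% of all genes on the TPM scales, near the share of members. With library totals only they took 4.22%. With only libraries with Xist, where both mutant groups keep 3, 13.1% of all genes were called. Leaving out 1 library gave 0 to 6 higher and 0 to 6 lower members, as 0% to 13.5% of all genes were called. The glycolytic median was 0.0452 and 0.0511 on TPM with pseudocounts of 1 and 0.1; the hypoxia median was -0.0225 with limma-voom, -0.30 and -0.31 on TPM, and -0.0684 to 0.15 leaving out 1 library. In wild type cells DESeq2 called 1 lower, with 8.05% of all genes called. The fit without the 3 libraries apart called 4 lower, where 4.09% of all genes were lower. Leaving out 1 library gave 0 to 2 higher and 0 to 3 lower, with 0.00649% to 6.59% of all genes called. The hypoxia median was then -0.15 to 0.11. With only libraries with Xist, 1 library of each wild type group, the wild type medians were 0.57 (glycolysis) and 0.40 (hypoxia), and Ero1l reversed to 0.59. Averaged over genotypes, 3 members were called higher on both TPM scales and 0 higher and 0 lower with only libraries with Xist, where no gene at all was called; the hypoxia median was -0.29 and -0.30 on TPM and 0.23 with only libraries with Xist. On either TPM scale 3.87% of all genes were called higher and 20.8% lower. Leaving out 1 library gave 1 to 12 higher and 3 to 7 lower members, as 9.15% to 26.2% of all genes were called. For mutant against wild type, the moderate hypoxia median was 0.0465 and 0.0478 on TPM, and with only libraries with Xist the moderate medians were 0.0665 (glycolysis) and 0.19 (hypoxia) and the averaged hypoxia median 0.00171. Leaving out 1 library gave a moderate glycolytic median of -0.46 to -0.0148. Egln3 at fortified folic acid reversed to -0.17 without the 3 libraries apart, on 1 mutant library. The cause was not tested for any of these, beyond the fewer libraries that the subsets hold.

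With the replicate block, members called were 2 higher and 1 lower in mutant cells, where 2.44% and 1.24% of all genes were. On average over genotypes they were 6 higher and 5 lower, where 7.86% and 7.34% of all genes were. No member was called elsewhere. Labels do not say that numbers pair samples. Correlations of deviations between same-numbered libraries had both signs, from -0.477 to 0.244.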
